A study of Drosophila melanogaster with 24 samples.

Results

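Wings of the pupal fruit fly were compared between 36 h and 24 h after puparium formation (APF), the interval in which a wing epithelium that has stopped dividing begins to differentiate. The comparison used 7 of the 24 arrays of the series, chosen by sample title: 3 samples of 36 h APF (B, C and D) and 4 samples of 24 h APF (A, B, D and E). All were wings of the stock w1118;+;+, a white-eyed laboratory strain with no other allele or treatment named, raised at 25 °C and dissected without the notum, and each sample held the RNA of 10 wings. The other stages of the series, late larval wing discs (L3) and 2, 6 and 18 h APF with 4 samples each, were used to estimate the spread and to compare steps, and the wing discs of L3, 2 h and 6 h APF still carried notum. A further array of 36 h APF, hybridized with RNA pooled from samples B and D, was left out of the comparison. For sample E of 24 h APF a stage field of the labels gave 36 h, against a title and description of 24 h; the title was followed. The labels describe the samples as independent, and the p-values rest on the spread among separately taken lots of wings.

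The pupal wing is a double-layered epithelium. In this period each cell builds an actin-filled hair on its outer surface, vein and intervein cells take different shapes, and secretion of the adult cuticle begins under the control of the steroid hormone ecdysone. Growth of the tissue, which in insects is tied to signalling through the kinase complex TORC1 and to the making of ribosomes, belongs mainly to the larval stages.

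Each array gave 1 intensity for each of 15473 transcripts, summarised from 3 to 5 probes and quantile normalized with all other arrays by the authors. Values are given as log2 of that intensity, and a difference of 1 is a 2-fold change. The arrays carry transcript identifiers and no gene names. Through the synonyms that RefSeq lists for fly genes, 17 transcripts could be tied to 1 gene and 27 to several genes, and 15429 stayed unnamed. The markers of wing epithelium, muscle, neurons, hemocytes, trachea and fat body could not be matched to transcripts, so the labelled tissue could not be checked against them. In whole wings a smaller number of cells of a type and less RNA per cell cannot be told apart.

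Sample B of 24 h APF stood apart from its stage. For 1813 transcripts its value was more than 2-fold away from the mean of A, D and E, and the same count was 225 for A, 1335 for D and 821 for E against their stage fellows. Array medians lay between 9.36 and 9.58 in the 7 arrays, and Pearson correlations across transcripts were 0.966 to 0.977 among the 36 h samples, 0.962 to 0.990 among the 24 h samples and 0.893 to 0.938 between the stages. Counts of calls and of differing steps, and the named genes that turned on sample B, are given below with and without it. Shares by signal class and by stage of highest or lowest mean are given with it only.

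The wing transcriptome differed broadly between stages 12 h apart. At a Benjamini-Hochberg adjusted p under 0.05 in limma, 7744 of 15473 transcripts (50.0%) differed between 36 h and 24 h APF, 3171 of them higher at 36 h (20.5% of all) and 4573 lower (29.6%). The split depended on the scaling and the arrays: with array medians centred again 3712 were higher and 3932 lower, and with only the 7 arrays in the fit 1833 and 3464. Rising transcripts changed by a median of 2.24-fold (quartiles 1.75 and 3.30) and by up to 816-fold, and falling ones by a median of 1.93-fold (1.54 and 2.81) and by up to 82.0-fold. Among rises, 565 exceeded 4-fold and 109 exceeded 16-fold, against 523 and 27 among falls. Across all transcripts the median change was -0.06, and 0.04 with array medians centred again.

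**Figure D1:**
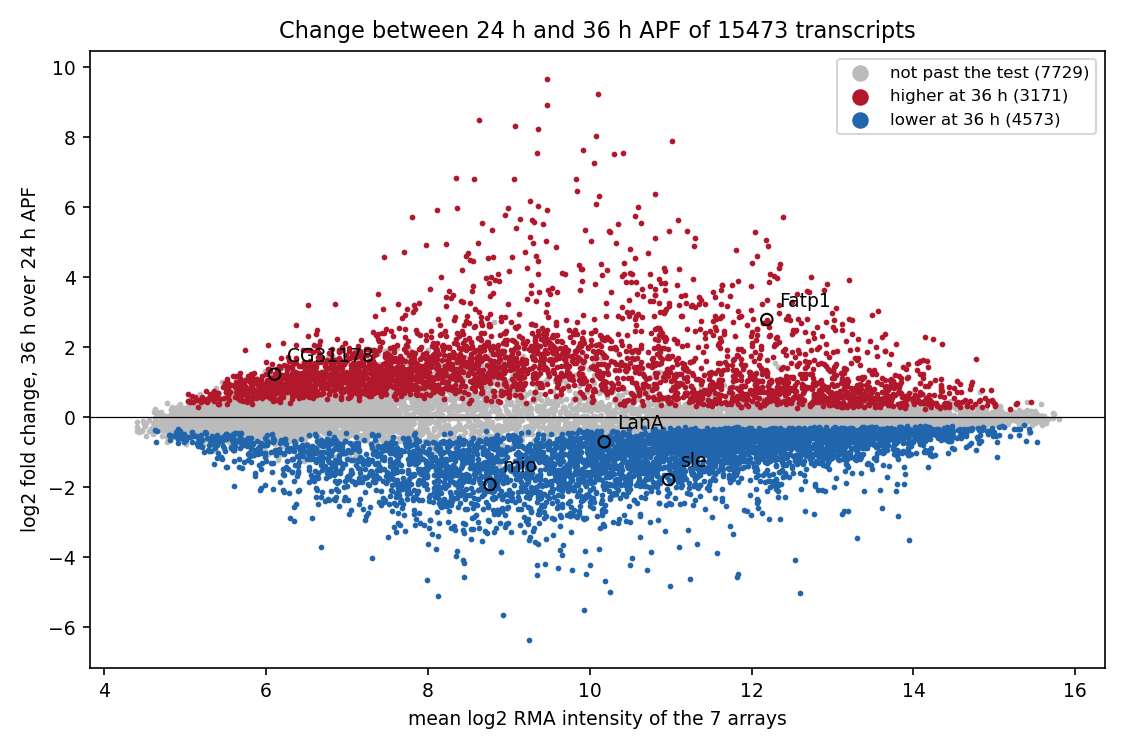
The log2 fold change of 36 h over 24 h APF (vertical axis) is plotted against the mean log2 intensity of the 7 arrays (horizontal axis) for 15473 transcripts, one point each, with the 3171 higher and 4573 lower transcripts in colour and 5 named genes circled. The rises extend to 9.67 and the falls to -6.36, and the falling calls lie mostly at medium to high intensity.

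The calls were not spread evenly over signal. With all transcripts split into 4 classes of equal size by mean signal, 13.5% of the dimmest class were higher at 36 h and 8.61% lower, and 30.9% and 26.9% of the class above it. In the next brighter class 20.6% were higher and 47.9% lower, and in the brightest 16.9% and 34.8%. The spread also differed between the classes, so these shares do not compare the size of the changes. From the dimmest to the brightest class the median SD at 36 h APF was 0.31, 0.50, 0.29 and 0.14. The median called fall was 1.87-, 2.89-, 2.02- and 1.53-fold, and the median called rise 1.86-, 2.51-, 2.85- and 1.73-fold. The files hold no background or detection call, so a low value gives only an upper limit of what the wing contained, and a large fold against it is uncertain in size. A further 7729 transcripts did not pass the test, and for 5601 of these the 95% limits of the change lay within 2-fold in either direction.

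The individual samples were also compared without a test. In 6714 transcripts (43.4% of all) the lowest sample of one stage lay above the highest of the other. This held for 2026 of the rising transcripts (63.9%) and for 4072 of the falling ones (89.0%). In 793 rising transcripts (25%) and 161 falling ones (3.52%), sample B of 24 h APF alone of its stage reached the 36 h range. The stages overlapped there through sample B only. Among the 24 h samples, B had the highest value for 1698 rising transcripts (53.5%) and the lowest value for 2130 falling ones (46.6%). Values of B that lay beyond the 36 h mean were counted too. No share over all transcripts is given beside these shares.

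The largest rise and the largest fall were near on-off changes of transcripts without a name in the sources used here. FBtr0078598 had 15.06, 15.03 and 14.90 in samples B, C and D of 36 h APF, against 5.22, 5.31, 5.58 and 5.19 in A, B, D and E of 24 h APF. It was thus among the brightest signals of every 36 h array and near the bottom of every 24 h array (log2 fold change 9.67 ± 0.23 SE, adjusted p = 8.04e-17 in limma). FBtr0100257 followed it with 15.38, 15.43 and 15.32 at 36 h APF, against 6.25, 5.83, 7.01 and 5.48 at 24 h APF (9.24 ± 0.49, adjusted p = 9.39e-12). Both had an earlier, lower peak in stage mean at 6 h APF, 8.28 for FBtr0078598 and 7.71 for FBtr0100257, beside 5.02 and 5.84 at 18 h APF.

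On the falling side, FBtr0073784 had 5.02, 6.68 and 5.15 at 36 h APF and 11.72, 11.42, 12.58 and 12.17 at 24 h APF. FBtr0088803 had 5.52, 6.14 and 5.45 at 36 h APF and 11.22, 10.99, 11.66 and 11.52 at 24 h APF. The groups of both were far apart, with log2 fold changes of -6.36 ± 0.33 and -5.64 ± 0.20 (adjusted p = 5.16e-12 and 2.42e-14 in limma), and both had their highest stage mean at 18 h APF. Changes across the whole range of signal ran mostly upward. From a 24 h mean in the range of the dimmest class (below 6.80) to a 36 h mean in that of the brightest (above 12.01) there were 18 transcripts, and in the opposite direction there was 1.

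Most of the transcripts that rose were at their highest of the whole series at 36 h APF, and most that fell were at their lowest. The 36 h mean was the highest of 6 stage means for 2538 of the rising transcripts (80.0%), against 31.7% of all transcripts, and the lowest for 3478 of the falling ones (76.1%), against 30.8% of all. These shares are a description, since the choice of rising and falling transcripts favours them. At 6 h APF 433 rising transcripts (13.7%) were highest, against 15.8% of all transcripts, and 681 falling ones (14.9%) lowest, against 20% of all. Over the rising transcripts the median stage mean was 7.96 at L3, 7.90 at 2 h, 8.49 at 6 h, 8.17 at 18 h, 8.23 at 24 h and 10.08 at 36 h APF. Over the falling ones it was 11.58, 11.40, 11.08, 11.47, 11.34 and 10.16 at the same stages. Both profiles were nearly level up to 24 h APF, apart from an excursion at 6 h in the direction of the later change.

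The step into 36 h APF differed from the steps before it. The 12 h from 6 to 18 h APF is an interval of equal length that shares no array with it, though the 6 h tissue still carried notum. Between these steps 7622 transcripts differed (49.3%), 2954 of them moving further upward and 4668 further downward in the later step. Against the 6 h step from 18 to 24 h APF, which shares the 24 h arrays, 4178 transcripts differed (27.0%), 1397 further upward and 2781 further downward. This last count was 2127 with the replicate letter as a block. Without sample B of 24 h APF, 8287 transcripts differed from the step of 6 to 18 h and 5209 from that of 18 to 24 h APF. The median absolute log2 change per transcript was 0.55 from 24 to 36 h, 0.22 from 18 to 24 h and 0.39 from 6 to 18 h APF, and 4342, 892 and 2976 transcripts changed by over 2-fold in mean.

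Of the 17 transcripts with 1 named gene, 2 were higher at 36 h APF, 10 were lower and 5 did not pass the test, with a median log2 fold change of -0.58. Over all transcripts 20.5% were higher and 29.6% lower. The 17 are the ones whose identifier could be matched, not a pathway, and no share among them stands for the array.

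**Figure D2:**
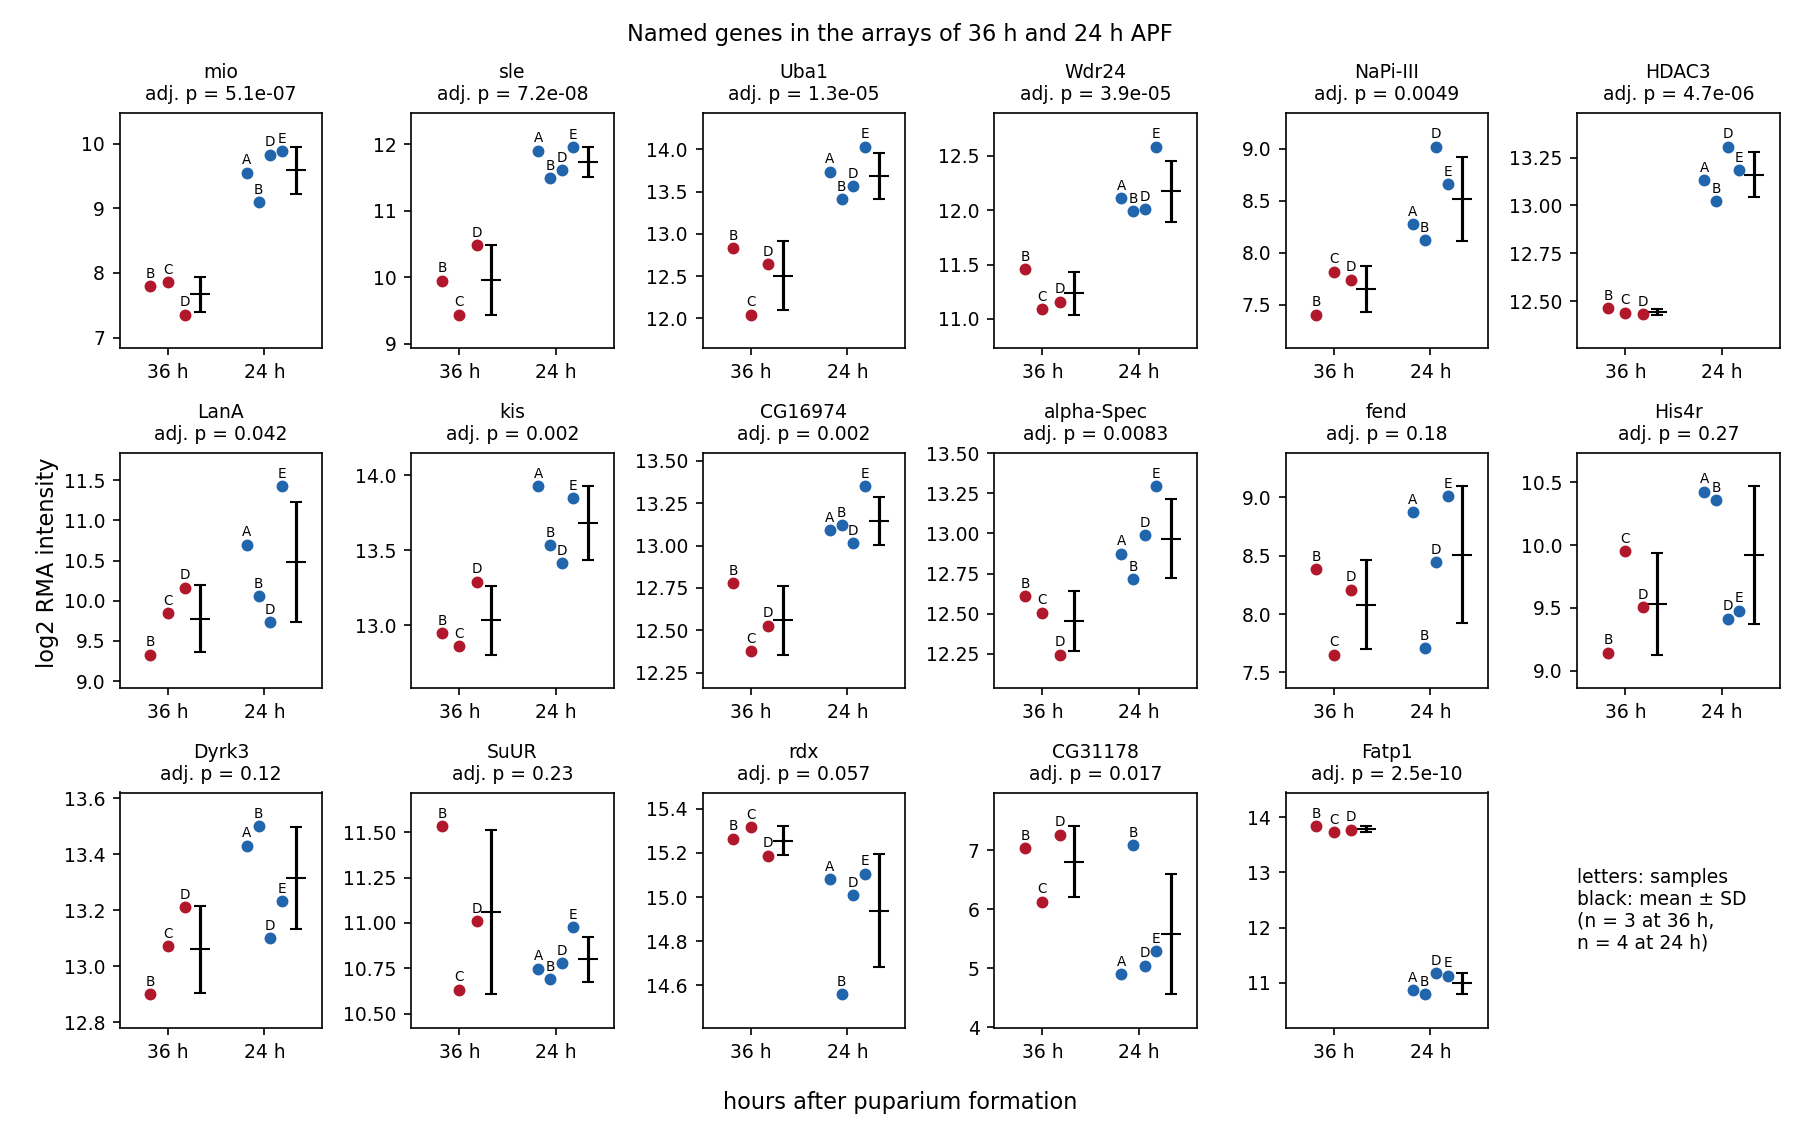
Log2 intensity (vertical axes, scaled for each gene) of the 17 named genes in the 3 samples of 36 h APF (red) and the 4 samples of 24 h APF (blue), with sample letters and black marks for mean ± SD; adj. p is limma's adjusted p. Fatp1 is at 13.7 to 13.8 in the 36 h samples and 10.8 to 11.2 in the 24 h samples, and mio, sle, Uba1, Wdr24 and HDAC3 are lower in every 36 h sample.

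The 3 named genes of growth control fell. The gene mio, which encodes a subunit of GATOR2, a complex that promotes TORC1 activity, had 7.80, 7.85 and 7.35 in B, C and D of 36 h APF, against 9.55, 9.09, 9.83 and 9.89 in A, B, D and E of 24 h APF. All 36 h samples lay below all 24 h samples, and the fall was 3.79-fold (log2 fold change -1.92 ± 0.22, adjusted p = 5.13e-07 in limma). A second GATOR2 subunit, Wdr24, had 11.46, 11.09 and 11.16 at 36 h APF and 12.11, 11.99, 12.01 and 12.58 at 24 h APF, also without overlap (-0.94 ± 0.15, adjusted p = 3.88e-05). For mio the fall exceeded the change from 18 to 24 h APF, by -1.56 ± 0.37 on the log2 scale (adjusted p = 0.00365), whereas for Wdr24 that difference did not pass the test (-0.43 ± 0.25, adjusted p = 0.221). Both were the measured members, out of 11, of a list of TORC1 and GATOR genes.

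The gene sle (slender lobes), whose nucleolar protein is needed for the processing of ribosomal RNA, had 9.95, 9.44 and 10.48 at 36 h APF against 11.90, 11.49, 11.61 and 11.95 at 24 h APF. The stages did not overlap, and the fall was 3.44-fold (-1.78 ± 0.18, adjusted p = 7.16e-08 in limma). Its stage mean was 11.08 at 6 h, 12.78 at 18 h and 11.74 at 24 h APF. The step into 36 h APF lay below the step from 6 to 18 h APF by -3.48 ± 0.24 (adjusted p = 1.63e-10), the widest such difference among the 17 genes. That earlier step was itself a rise. Against the step from 18 to 24 h APF, in which sle also fell, the difference did not pass the test (-0.74 ± 0.29, adjusted p = 0.0678). It was the measured member, out of 13, of a list of ribosome biogenesis and growth genes. The array of pooled B and D RNA gave 11.17 for sle, above both B and D but below every 24 h sample.

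Uba1, the enzyme that activates ubiquitin, had 12.83, 12.04 and 12.64 at 36 h APF and 13.74, 13.41, 13.56 and 14.03 at 24 h APF (-1.18 ± 0.18, adjusted p = 1.33e-05 in limma). HDAC3, a histone deacetylase, had the smallest spread at 36 h APF among the 17 genes, with 12.46, 12.44 and 12.43 at 36 h APF, against 13.13, 13.02, 13.31 and 13.19 at 24 h APF. Its change was small in size but clear of the spread (-0.72 ± 0.10, adjusted p = 4.67e-06). The gene kis (kismet), which encodes a chromatin remodelling protein, had 12.95, 12.86 and 13.29 at 36 h APF and 13.93, 13.53, 13.42 and 13.85 at 24 h APF (-0.65 ± 0.16, adjusted p = 0.00201), with sample D of 36 h close to sample D of 24 h.

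His4r and SuUR did not pass the test. His4r, which encodes a histone H4 made outside S phase as well, averaged 9.53 ± 0.40 at 36 h APF and 9.92 ± 0.55 at 24 h APF (SD, n = 3 and n = 4; adjusted p = 0.268 in limma). SuUR, whose product restrains replication of heterochromatin in polytene cells, averaged 11.06 ± 0.45 at 36 h and 10.80 ± 0.12 at 24 h APF (adjusted p = 0.227), and its 36 h samples alone ranged over 0.90. Without sample C of 36 h APF the log2 fold change of SuUR was 0.47 and passed (adjusted p = 0.0325), and without sample B of 36 h APF it was 0.02 (adjusted p = 0.924). The stages of both genes overlapped.

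Fatp1, which encodes a fatty acid transport protein, showed the larger of the 2 rises among the named genes. It had 13.84, 13.73 and 13.78 in B, C and D of 36 h APF, against 10.86, 10.79, 11.18 and 11.13 in A, B, D and E of 24 h APF. The samples of each stage were close together and the stages far apart, a rise of 6.93-fold (2.79 ± 0.19, adjusted p = 2.51e-10 in limma). Its stage means before that were 10.87 at L3, 11.78 at 2 h, 11.78 at 6 h and 11.60 at 18 h APF, so that 36 h was the highest of the series. The step exceeded that from 18 to 24 h APF by 3.41 ± 0.31 (adjusted p = 1.15e-07). NaPi-III, whose name marks it as a sodium phosphate transporter, moved the other way, with 7.40, 7.82 and 7.74 at 36 h APF and 8.28, 8.12, 9.02 and 8.66 at 24 h APF (-0.87 ± 0.24, adjusted p = 0.00488). Its stage mean was 12.01 at L3 and 10.06 at 18 h APF, and the step into 36 h APF did not differ in the test from the step from 18 to 24 h APF (0.68 ± 0.39, adjusted p = 0.208).

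The named genes of the membrane skeleton and the matrix fell by less than 2-fold, and neither call held in every setting. Alpha-Spec, the alpha subunit of the spectrin network under the cell membrane, had 12.61, 12.51 and 12.24 at 36 h APF and 12.87, 12.72, 12.99 and 13.29 at 24 h APF, without overlap (-0.52 ± 0.15, adjusted p = 0.00826 in limma). LanA, the laminin alpha chain of the basement membrane and the measured member, out of 16, of a list of adhesion and matrix genes, had 9.33, 9.84 and 10.16 at 36 h APF and 10.70, 10.06, 9.74 and 11.42 at 24 h APF. Its stages overlapped and the call was marginal (-0.70 ± 0.28, adjusted p = 0.0415). Without sample E of 24 h APF the adjusted p was 0.171, without B of 36 h APF 0.211, without A of 24 h APF 0.0949 and without C of 36 h APF 0.0684. The stage mean of LanA was 13.00 at L3, 11.08 at 6 h and 9.56 at 18 h APF. The call of alpha-Spec was lost without D of 36 h APF (adjusted p = 0.0569).

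The gene rdx (roadkill), which encodes an adaptor for degradation of the Hedgehog pathway factor Ci, was at 15.26, 15.32 and 15.19 in the 36 h samples and 15.08, 14.56, 15.01 and 15.11 in the 24 h samples. The samples did not overlap, yet the change missed the threshold (0.32 ± 0.13, adjusted p = 0.0573 in limma). Without sample A of 24 h APF, or without E, it passed (adjusted p = 0.0474 and 0.0415). Without B of 24 h APF, the lowest sample, the log2 fold change was 0.19 (adjusted p = 0.204). Dyrk3, a protein kinase, averaged 13.06 ± 0.15 at 36 h and 13.32 ± 0.18 at 24 h APF (SD, n = 3 and n = 4; adjusted p = 0.122), and fend averaged 8.08 ± 0.38 and 8.51 ± 0.58 at these stages (adjusted p = 0.185). For fend the outcome turned on sample B of 24 h APF, whose 7.71 lay below the mean of the 36 h samples. With that array left out fend was lower at 36 h APF by -0.69 with an adjusted p of 0.0157.

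CG16974 and CG31178 carry no further name. CG16974 had 12.78, 12.38 and 12.53 at 36 h APF and 13.09, 13.12, 13.02 and 13.35 at 24 h APF (-0.58 ± 0.14, adjusted p = 0.00201 in limma). CG31178 had 7.04, 6.13 and 7.26 at 36 h APF, against 4.89, 7.09, 5.04 and 5.28 at 24 h APF (1.23 ± 0.41, adjusted p = 0.0170). Its sample B of 24 h APF lay among the 36 h samples while the other 24 h samples lay below all of them, and without that array the log2 fold change was 1.74. The call of CG31178 was lost when B or D of 36 h APF was left out, or A or D of 24 h APF (adjusted p = 0.0607, 0.0873, 0.0596 and 0.0550).

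Among the 27 transcripts that RefSeq lists under several genes, 5 were higher at 36 h APF, 8 were lower and 14 did not pass the test, beside 20.5% higher and 29.6% lower over all transcripts, with a median log2 fold change of -0.23. Their values cannot be given to one of the genes alone. The transcript of CG12016 and Dpm2, a subunit of the enzyme that makes dolichol phosphate mannose, had 8.29, 7.06 and 8.29 at 36 h APF and 10.60, 10.11, 10.77 and 10.89 at 24 h APF (-2.71 ± 0.24, adjusted p = 1.14e-08 in limma). That of Rad1, a DNA damage checkpoint clamp subunit, and Sws1 had 6.15, 6.32 and 6.61 at 36 h APF against 8.49, 8.43, 8.35 and 8.44 at 24 h APF (-2.07 ± 0.22, adjusted p = 2.14e-07). Smaller falls were found for Tgs1 with moi, an RNA cap methyltransferase and a telomere capping protein (-0.59 ± 0.12, adjusted p = 3.79e-04), and for CG42516 with Pbp49, a subunit of the complex that starts transcription of small nuclear RNA genes (-0.48 ± 0.10, adjusted p = 5.22e-04).

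The widest rise in this group was that of the transcript of CG10570 and CG42502, with 10.30, 11.29 and 11.90 at 36 h APF and 9.79, 9.37, 8.19 and 7.70 at 24 h APF. Neither stage was even, but the samples did not overlap (2.40 ± 0.41, adjusted p = 6.94e-05 in limma). Its stage mean was 11.14 at L3, 11.84 at 2 h, 11.08 at 6 h and 10.54 at 18 h APF. The mean of 24 h APF (8.76) was thus the lowest of the series, and that of 36 h APF (11.16) was near the earlier ones. The transcript of CG7071 and Muted, a subunit of the lysosome-related complex BLOC-1, had 14.22, 14.23 and 13.96 at 36 h APF and 13.11, 13.12, 13.32 and 12.91 at 24 h APF (1.02 ± 0.12, adjusted p = 4.89e-07).

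Of the 6 slides of 4 arrays, 3 held a sample of each stage, which allowed the comparison within a slide. For each, calls were first made on the arrays of the other slides. The differences within a slide then ran in the called direction for 96.8% of 5831 calls on the slide of 36 h D and 24 h E and for 94.4% of 6479 calls on the slide of 36 h C and 24 h D. On the slide of 36 h B and 24 h B the share was 83.0% of 7828 calls. Over all transcripts, called or not, the share that ran the way of the other slides was 82.1%, 79.6% and 72.3% on these slides. On the slide of 36 h B and 24 h B the median difference was 0.42 for rising and -0.77 for falling calls. It was 1.08 and -1.15 on the slide of 36 h D and 24 h E. On the slide of 36 h C and 24 h D it was 1.25 and -1.04. Of the 7744 calls made on all arrays, all 3 slides moved the called way for 2612 rising (82.4%) and 4412 falling transcripts (96.5%), a description only, since the same arrays made the calls. The pooled array lay beyond every 24 h sample in the called direction for 2850 of the rising (89.9%) and 4214 of the falling transcripts (92.1%); its RNA is that of samples B and D, so it adds no independent sample.

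Sample B of 24 h APF was part of the way to the 36 h values. For transcripts called with that array left out, its median place was 46.8% of the way from the other 24 h samples to the 36 h mean for 3745 rising transcripts and 19.1% for 4620 falling ones. The same measure, made for each other 24 h sample with that sample left out, was 1.77% and 5.37% for A, -5.32% and -1.71% for D and -7.07% and -13.5% for E. The shift of sample B differed between size classes of the rise. Among the 3171 transcripts called as rising with sample B in the fit, it was 12.2% of the way for those under 2-fold. It was 43.2% for rises of 2- to 4-fold and 61.8% for those of 4- to 8-fold, but 1.78% for the 252 that rose over 8-fold. Sizes were computed without sample B. Calls made with it miss small rises in which it lay near the 36 h values. How far this selection shaped the increase up to 8-fold was not tested. For falls the medians were 11%, 21.2%, 20.7% and 12.1% in the same classes. FBtr0078598, which rose over 8-fold, was at the level of the other 24 h samples in sample B (-0.19% of the way). Fatp1 was near that level too (-9.70%). Its rise without sample B, 2.73 on the log2 scale, placed Fatp1 in the class of 4- to 8-fold, whose median was 61.8%.

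**Figure D3:**
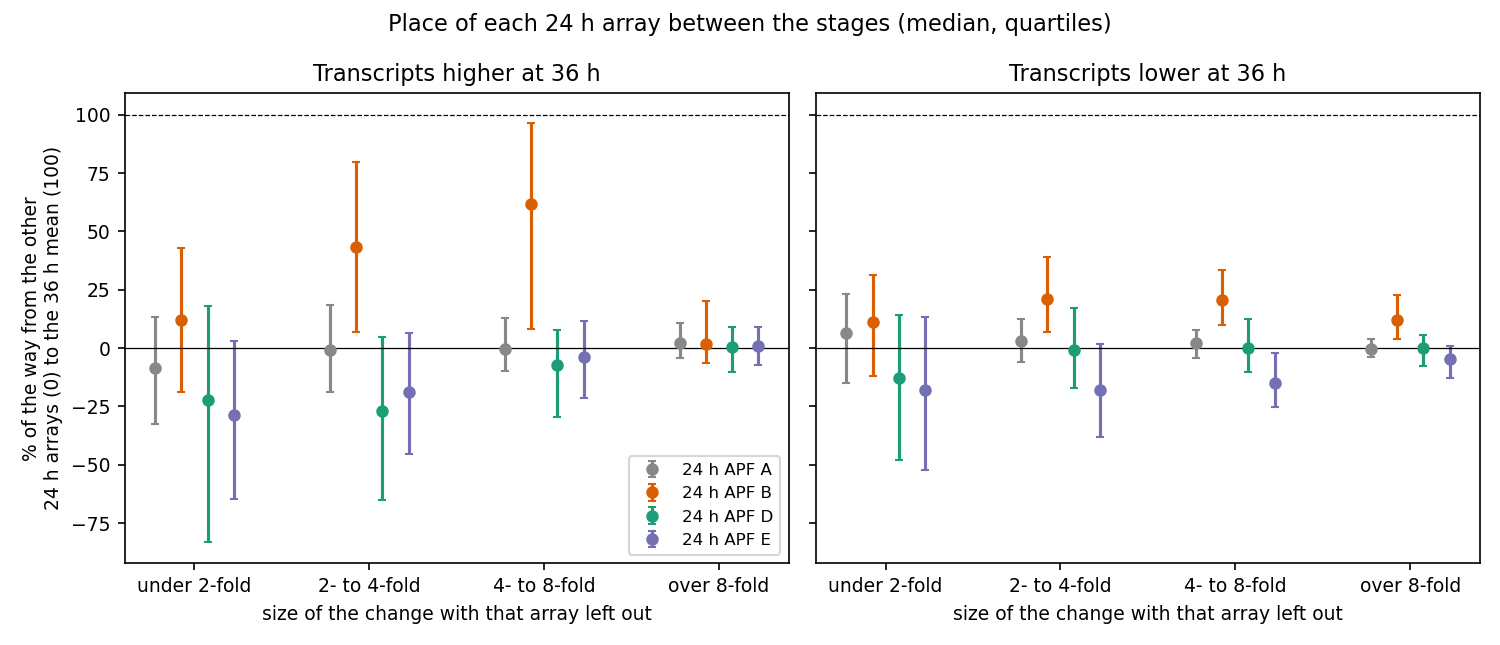
Median place of each 24 h sample between the other 24 h samples (0%) and the 36 h mean (100%), with bars from lower to upper quartile over transcripts, for 4 size classes of change computed with that sample left out; the left panel holds transcripts higher at 36 h APF and the right panel those lower. The transcripts were those called with every 24 h sample in the fit. Sample B is at 61.8% for rises of 4- to 8-fold and at 1.78% for rises over 8-fold.

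The rising transcripts were split by their value in this array. For 793 of the 3171 (25.0%) sample B of 24 h APF reached the range of the 36 h samples while A, D and E lay below it, against 161 of the 4573 falling transcripts (3.52%) in the mirror case. With sample B left out of the 24 h mean, 19 of the 793 rose over 8-fold and their median rise was 3.10-fold, beside 233 and 2.24-fold for the other 2378. With sample B in that mean, which by the choice of the 793 lowers their folds, none exceeded 8-fold and the median was 2.38-fold. In their median value they stood at 8.643, 8.216 and 9.001 in B, C and D of 36 h APF, against 7.10, 8.43, 6.65 and 6.83 in A, B, D and E of 24 h APF. At 18 h APF their medians were 7.08, 7.02, 8.25 and 7.28 in samples A, B, C and D. Sample C of 18 h APF, which lay on the same slide as B of 24 h APF, was thus raised for the same transcripts: it was the highest 18 h sample for 652 of the 793 (82.2%), against 28.6% of all transcripts. At 36 h APF the lowest sample for 423 of them (53.3%) was C, against 32.5% of all.

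The other 2378 rising transcripts showed little of this, which for sample B of 24 h APF follows in part from the split. Their median value was 11.06, 11.15 and 11.02 in the 36 h samples and 9.04, 9.23, 8.74 and 8.93 in the 24 h samples, and sample C of 18 h APF (8.91) was close to A, B and D (8.68, 8.71 and 8.80). Across all transcripts, the deviation of B of 24 h APF from its stage mean correlated with that of C of 18 h APF at 0.776, and with those of the remaining 18 h samples at -0.357 to -0.554. With B and D of 36 h APF the value was 0.179 and 0.297, with C of 36 h APF -0.412, and with the L3 sample on the same slide 0.219. Samples on another slide gave values as high, 0.363 for B of 6 h APF and 0.295 for B of 2 h APF. Deviations from a stage mean cancel within the stage for each transcript, so the signs within a stage are tied to each other. The correlations are descriptions over 15473 transcripts that share the normalization, and the 793 were chosen by the values of sample B itself. The part of the slide in the shift was not tested.

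**Figure D4:**
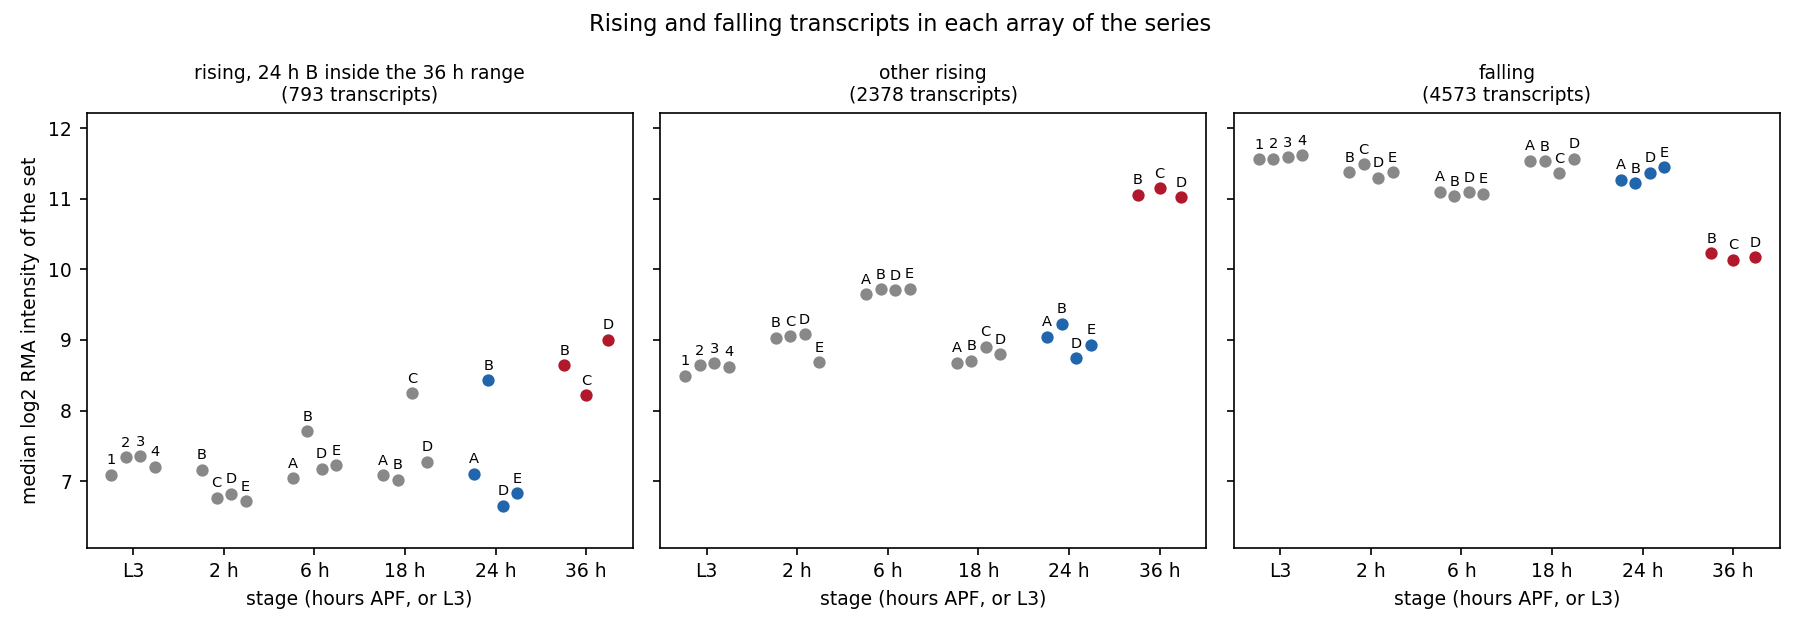
Median log2 intensity (vertical axis) in each independent sample, by stage from L3 to 36 h APF (horizontal axis), of the 793 rising transcripts for which B of 24 h APF reached the 36 h range, of the other 2378 rising and of the 4573 falling transcripts; 36 h samples are red, 24 h samples blue and earlier ones grey. In the first set B of 24 h APF (8.43) and C of 18 h APF (8.25) stand with the 36 h samples, while in the others each stage is close together.

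Leaving sample B of 24 h APF out gave 8365 calls, 3745 higher and 4620 lower at 36 h APF, of which 7452 were among the 7744 with the same direction. Leaving out C of 18 h APF as well gave 8545 calls, 3872 higher and 4673 lower. The median spread among the 24 h samples (SD of the log2 values) was 0.29 with sample B and 0.25 without it, beside 0.28 among the 36 h samples.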

How the data were processed

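Per the labels, total RNA of dissected wings was labelled with Cy3 and hybridized to NimbleGen expression arrays, described as independent replicates. The authors used NimbleScan for scanning and for quantile normalization across all arrays, and Robust Multichip Average (RMA, also in the submitters' processing notes) gave 1 linear intensity per transcript. Versions, genome build and annotation release were not given in the sources used here. Quantile normalization hides a change in total RNA, and differences of dim transcripts are compressed. The deposited table of the whole series gives these values on the log2 scale, for 15469 transcripts, and was used as an alternative.

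The deposited intensities of 15473 transcripts were put on the log2 scale, with no filter. A model with 1 mean per stage was fitted over 23 arrays by lmFit and eBayes of limma (version 3.58.1, R version 4.3.3). The contrast 36 h minus 24 h APF, and its difference from earlier steps, were called at a Benjamini-Hochberg adjusted p under 0.05. The number of arrays limits the precision. The paper's methods name an ANOVA, run as an alternative. The script was tested on simulated data. Figures were drawn with matplotlib 3.10.9.

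The samples and gene lists were chosen with earlier results of these data known. Since few transcripts could be named, the rule took all 17 tied to a single gene, whatever their values, and the 2 rising and 2 falling unnamed transcripts of largest fold. The 27 tied to several genes were added after their values were seen. Of 12 gene lists (TORC1 and GATOR, ribosome biogenesis, adhesion and matrix, DNA replication, mitosis, basal transcription, cuticle, chitin, ecdysone response, veins, wing hairs and the genes the paper names) 9 had no measured member by name, so they gave no result. Promoter sequences and coordinates were not used here. The alternatives are given with the closing observations.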

Additional observations from a re-analysis of the deposited data

How the results depend on the processing

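No alternative tried reversed the direction of a named gene. The median rise and the median fall cannot change sign, since each was taken over calls of that direction. The median over all transcripts was -0.06, and 0.04 with array medians centred again. The calls numbered 7744, with 6742 to 8365 when 1 of the 7 arrays was left out (fewest without D of 36 h APF, most without B of 24 h APF). The median rise was then 1.13 to 1.35 and the median fall -1.04 to -0.95 on the log2 scale, and the steps differed from that of 6 to 18 h APF for 7210 to 8287 transcripts and from that of 18 to 24 h APF for 3116 to 5209. Only the 7 arrays gave 5297 calls and a median fall of -1.14. Leaving out dim transcripts (mean under 9.45) kept 7651 transcripts, with 4829 calls and a median fall of -0.78. A change over 2-fold left 4065 calls. Chosen after seeing the data, only the 36 h and 24 h arrays without B of 24 h APF gave a median fall of -1.23, and leaving out both B of 24 h and C of 18 h APF gave 8545 calls. With the replicate letter as a replicate block over the arrays of 2 to 36 h APF there were 5600 calls (1903 higher, 3697 lower) and 2127 transcripts whose step differed from that of 18 to 24 h APF. The labels do not tie equally lettered samples to each other. The deviations of the lettered pairs correlated at 0.18 for B and -0.19 for D, and those of B of 24 h APF at 0.295, 0.363 and -0.554 with B of 2, 6 and 18 h APF. Slide as a block (7645 calls fixed, 7942 random), position on the slide (7381), the ANOVA (7597), the pooled array kept (8658), array medians centred again (7644), cyclic loess (7171) and the deposited log2 table (7743) stayed within 1.5 times. Over all settings the named genes and shown transcripts had the outcome of the main fit, called or not called, in 401 cases. A call was lost in 20 and gained in 14. The shown transcripts, picked for the largest folds, are included. With only the 7 arrays the adjusted p was 0.227 for LanA, 0.131 for CG31178 and 0.0660 for alpha-Spec; LanA had 0.343 and alpha-Spec 0.187 under cyclic loess, where SuUR passed (0.00478). With the pooled array fend, rdx and His4r passed (0.0434, 0.0345 and 0.0472). Dim signal near background, for which the files hold no call, limits the size of folds from the lowest values.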

Other observations

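The array hybridized with the B and D pool of 36 h APF could be set against the mean intensity of its parts. The median absolute log2 difference between the pooled array and that mean was 0.29, against 0.28 between B and D themselves. By over 2-fold, 1095 transcripts (7.08%) differed between the pooled array and that mean, against 1559 between B and D. For 543 transcripts the pooled value lay outside the range of B and D by over 2-fold, 167 above and 376 below it. Among named genes the pooled array exceeded the mean of its parts by 0.93 for sle and by 0.65 for Wdr24, and for His4r the difference was -1.83. It lay on the other side of the 24 h mean from the called direction for 102 rising transcripts (3.22%) and 102 falling ones (2.23%).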
